A study of Homo sapiens with 4 samples.

Results

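Trimethylation of histone H3 at lysine 4 (H3K4me3) is usually found together with acetylation of lysine 27 (H3K27ac) at promoters, and the sites described here are the gene boundaries where H3K4me3 was found and H3K27ac was not. They were chosen from the list of H3K4me3 peak summits of MHCC97L cells, an established human hepatocellular carcinoma line. A summit was taken when it lay within 1000 bp of the start or end of a protein-coding gene and no H3K27ac summit lay within 2500 bp of it. The rule took 2035 of the 46078 H3K4me3 summits on chromosomes 1 to 22 and X, and 15.2% of the 13394 that lay at a gene boundary. They marked 1730 protein-coding genes, which is 8.66% of all 19974 such genes and 15.3% of the 11344 with any H3K4me3 summit at a boundary, themselves 56.8% of all. The other 11359 boundary H3K4me3 summits, which had H3K27ac within 2500 bp and lay at 9805 genes, serve as the comparison. The study measured H3K4me3, H3K27ac and monomethylation of lysine 4 (H3K4me1) by chromatin immunoprecipitation and sequencing, with 1 library per mark, and the libraries share 1 untreated, wild-type cell line. Another library, of input chromatin, was not analysed here. With 1 library per mark there was no replicate and no test between groups of summits, so values are descriptions, and ranges in parentheses are 95% intervals by the method of Wilson, which cover counting error alone.

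H3K4me3 is laid down by SET1 and MLL family methyltransferases, which are drawn to CpG-rich promoters, while H3K27ac is written by the acetyltransferases p300 and CBP at promoters and enhancers in use. Promoters with H3K4me3 and without acetylation are known from genes that are poised or silent. In embryonic stem cells many developmental regulator genes carry H3K4me3 together with trimethylation of lysine 27 by Polycomb complexes, a state called bivalent. Lysine 27 can carry either acetylation or methylation but not both on the same histone tail. Methylation of lysine 27 was not measured in these libraries, so bivalency cannot be read from them.

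The lists give for each summit a position and a score, which the authors made as −log10 of a p-value or a q-value (the sources used here do not say which), without peak width or read count. A member may therefore still lie under a wide H3K27ac peak whose summit is further away, or have H3K27ac too weak to be called. With only H3K27ac summits scoring at least 10 counted, 3526 summits would be members. Of 9 hepatocyte markers, 4 had boundary H3K4me3 and 3, namely ALB, APOB and TTR, had neither H3K4me3 nor H3K27ac in the gene, while all 3 epithelial markers, KRT8, KRT18 and CDH1, had boundary H3K4me3 with H3K27ac. Among markers of other cell types, 1 of 3 endothelial, 2 of 3 myeloid and 1 of 3 stellate cell or fibroblast markers had boundary H3K4me3. The part that other cell types in the culture could have in the results was not tested.

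The DNA at the members is shown by 6 promoters, each given as the 250 bases upstream of the start of transcription in RefSeq (GRCh38.p14), read 5′ to 3′ on the strand of the gene, with every CG dinucleotide in capitals. LHX9 (chr1:197912214-197912463, plus strand), PITX3 (chr10:102241513-102241762, minus strand) and HEY2 (chr6:125749382-125749631, plus strand) are the developmental regulators with the highest member scores among those whose summit was nearest an unshared start that the RefSeq table also gives, with no H3K27ac summit in the gene. GPRASP3 (chrX:102720493-102720742, plus strand) and BACE1 (chr11:117316257-117316506, minus strand) lead the members of low CpG content in the same way. ANXA1 (chr9:73151615-73151864, plus strand) is the highest-scoring member with TATAAA upstream of its start.
LHX9: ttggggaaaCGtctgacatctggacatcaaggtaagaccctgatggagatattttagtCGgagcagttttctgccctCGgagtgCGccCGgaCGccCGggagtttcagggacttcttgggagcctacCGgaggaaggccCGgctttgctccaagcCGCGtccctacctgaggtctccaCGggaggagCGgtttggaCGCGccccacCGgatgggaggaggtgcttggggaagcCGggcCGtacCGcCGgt
PITX3: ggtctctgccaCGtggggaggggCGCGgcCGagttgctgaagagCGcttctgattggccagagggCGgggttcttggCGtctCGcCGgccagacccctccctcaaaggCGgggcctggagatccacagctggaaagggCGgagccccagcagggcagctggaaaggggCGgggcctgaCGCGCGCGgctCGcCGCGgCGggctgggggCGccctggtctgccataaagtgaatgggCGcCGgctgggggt
HEY2: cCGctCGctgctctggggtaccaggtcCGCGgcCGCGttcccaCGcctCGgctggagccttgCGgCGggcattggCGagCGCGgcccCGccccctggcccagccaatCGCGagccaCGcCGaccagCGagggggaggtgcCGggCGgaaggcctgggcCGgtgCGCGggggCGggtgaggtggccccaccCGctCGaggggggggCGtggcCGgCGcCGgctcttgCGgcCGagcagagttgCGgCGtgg
GPRASP3: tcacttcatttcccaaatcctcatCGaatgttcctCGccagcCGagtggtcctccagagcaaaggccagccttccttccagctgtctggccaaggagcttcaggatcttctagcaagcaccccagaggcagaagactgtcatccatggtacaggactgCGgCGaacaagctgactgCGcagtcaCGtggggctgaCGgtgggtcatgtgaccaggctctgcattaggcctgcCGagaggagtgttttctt
BACE1: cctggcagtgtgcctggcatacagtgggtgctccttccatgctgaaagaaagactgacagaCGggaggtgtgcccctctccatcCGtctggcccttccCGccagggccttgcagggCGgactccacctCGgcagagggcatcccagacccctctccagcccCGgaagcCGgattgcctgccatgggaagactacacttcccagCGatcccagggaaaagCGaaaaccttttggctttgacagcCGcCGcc
ANXA1: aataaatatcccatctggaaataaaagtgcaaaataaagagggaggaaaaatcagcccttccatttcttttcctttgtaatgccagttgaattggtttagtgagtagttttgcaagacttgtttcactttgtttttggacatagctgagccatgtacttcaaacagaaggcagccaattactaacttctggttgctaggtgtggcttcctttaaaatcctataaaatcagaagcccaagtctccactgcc
The stretches hold 20, 23 and 35 CG dinucleotides for LHX9, PITX3 and HEY2, then 9 for GPRASP3, 11 for BACE1 and 0 for ANXA1. The first group is the common kind among the members, as the promoter counts given further on show, and ANXA1 is an exception.

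Members had low H3K4me3 scores compared with other boundary summits. Their median score was 10.0 with quartiles of 5.30 and 20.3, from 1.41 to 95.2. Boundary summits with H3K27ac had a median of 47.2 with quartiles of 22.6 and 65.1, so the upper quartile of the members lay below the lower quartile of the others. Scores of 10 or more were found for 1022 of the 2035 members and 9720 of the 11359 others. When all boundary summits were ranked by score and cut into 10 groups of like size, members made up 38.7% of the lowest group and 10.7% of group 5. In the highest group 7 of 1340 summits (0.522%) lacked H3K27ac. Scores among the members took only 627 distinct values, and the most frequent of them, 8.32, occurred 87 times.

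**Figure D1:**
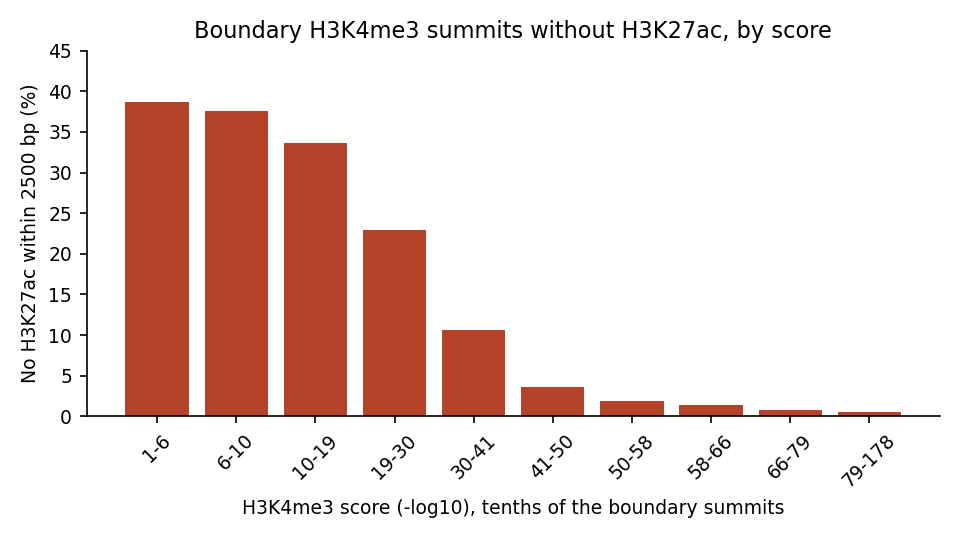
Share of boundary H3K4me3 summits with no H3K27ac summit within 2500 bp (percent, bars) in 10 groups of like size by H3K4me3 score (−log10, x axis; labels give the rounded range of scores in each group). The share falls from 38.7% in the lowest group to 0.522% in the highest.

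For most members H3K27ac was far away, well past the 2500 bp of the rule. The nearest H3K27ac summit lay at a median of 26323 bp, and 1503 members (73.9%, 71.9 to 75.7) had none within 10000 bp. No H3K27ac lay within 100000 bp of 308 members (15.1%, 13.6 to 16.8), while 270 (13.3%, 11.9 to 14.8) had a summit between 2500 and 5000 bp. The members nearest to the threshold were at RNF181 and TMEM150A (shared, score 1.80, H3K27ac at 2505 bp), ANKRD13B and CORO6 (shared, 8.65, 2508 bp) and RPS19BP1 (7.29, 2510 bp). The summits just outside were at RAB24 (4.30, 2495 bp), DNAJC14 (5.92, 2490 bp) and MGST1 (4.93, 2489 bp). TRAM1L1 had the most distant H3K27ac, 1192889 bp away, at an H3K4me3 score of 15.2. Next came ADGRB3, an adhesion receptor gene of neurons, with LOC127898563 at the same summit (8.32, 1162035 bp), then ASXL3 (10.5, 1076359 bp) and the cell adhesion gene CADM1 (22.8, 1058613 bp).

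Developmental regulators were a small part of the member genes, yet a larger part than among genes with H3K27ac. The regulators counted were 360 transcription factor genes of 13 lists: the HOX, PAX, SOX, FOX, T-box, GATA, LIM, NKX, sine oculis, IRX, DLX, POU, ZIC, GLI and GLIS families, further homeobox genes and basic helix-loop-helix (bHLH) genes. They gave 60 of the 1730 member genes (3.47%, 2.70 to 4.44), against 72 of the 9805 acetylated genes (0.734%, 0.584 to 0.924) and 1.80% of all protein-coding genes. Of the 127 regulators with boundary H3K4me3, 60 (47.2%, 38.8 to 55.9) had a member summit, beside 15.3% of all genes with boundary H3K4me3. The remaining 233 regulators, in which no boundary H3K4me3 was called, are not members. Genes in neither of the developmental groups, regulators or the signals described further on, made up 95.1% of the member genes.

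The share without H3K27ac was also higher at developmental regulators than at other genes within each score range below 40. Of the boundary summits with scores from 5 to 10, 30 of 41 at developmental regulators lacked H3K27ac (73.2%, 58.1 to 84.3), against 36.5% at other genes. With scores from 20 to 40 the values were 11 of 31 (35.5%, 21.1 to 53.1) and 16.8%. Above a score of 40 they were 1 of 39 (2.56%) and 1.68%, and the interval of the first, 0.454 to 13.2, takes in the second. The median score of the 82 member summits at regulators was 8.15, against 28.1 for the 96 regulator summits with H3K27ac.

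**Figure D2:**
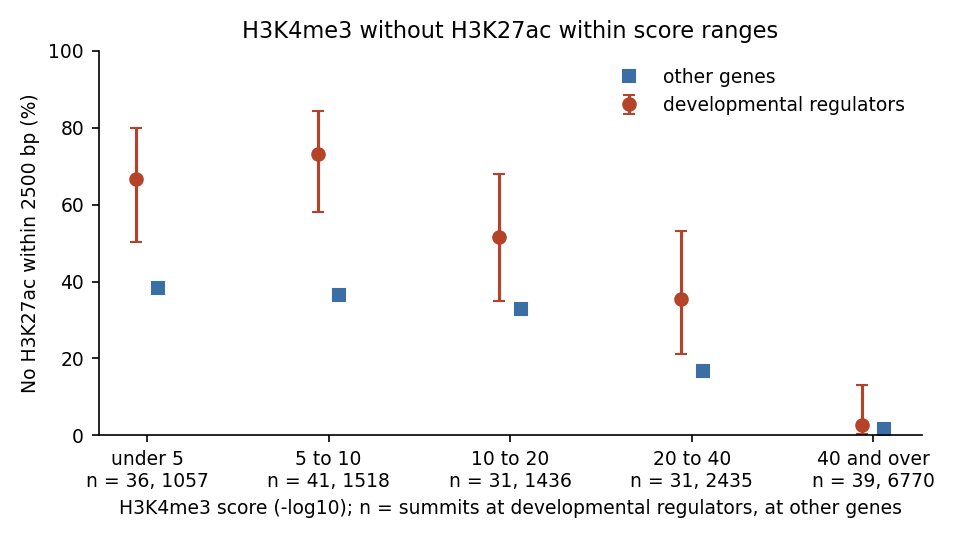
Share of boundary H3K4me3 summits without H3K27ac within 2500 bp (percent) in ranges of the H3K4me3 score (−log10), for summits at developmental regulators (circles, with 95% Wilson intervals) and at other genes (squares). At scores from 5 to 10 the shares are 73.2% and 36.5%, and above 40 they are 2.56% and 1.68%.

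Among the HOX genes, which set position along the body axis, 9 of the 20 with boundary H3K4me3 had a member summit (25.8 to 65.8%). They came from the B, C and D clusters and scored between 4.26 and 21.9. HOXC10 was highest at 21.9, with H3K27ac 6355 bp away, followed by HOXD10 at 12.5, HOXD13 at 12.3 and HOXB4 at 11.3. The HOXD10 summit lay at the end of the gene, 2496 bp downstream of its start. HOXB9 scored 9.72, HOXC8 8.93, HOXB2 6.26 and HOXB13 5.31. HOXC9 was the weakest at 4.26 and the only one of the 9 with an H3K27ac summit inside the gene or its 1000 bp margins, and HOXB13 had a further boundary summit with H3K27ac. The nearest H3K27ac lay between 2653 bp (HOXC9) and 21522 bp (HOXD10) from the 9 summits, all nearer than the median of all members.

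Other homeobox families were members at varied rates, beside 15.3% of all genes with boundary H3K4me3. The median best member score of the NKX genes was 8.17, and 37.5% of all boundary summits with scores from 5 to 10 were members. All 4 NKX genes with boundary H3K4me3 were members (51.0 to 100%), among them NKX2-2 at 9.05, NKX3-2 at 7.29 and the heart regulator NKX2-5 at 4.36. So were 4 of the 5 sine oculis, IRX and DLX genes with the mark, with DLX2 at 35.5, DLX4 at 22.8, DLX6 at 12.2 and DLX5 at 4.74. DLX2 also had a boundary summit with H3K27ac, and the other 3 DLX genes had no H3K27ac in the gene. The LIM homeobox genes LHX9 and LHX2 had member scores of 29.5 and 5.30. Of 24 further homeobox genes with boundary H3K4me3, 13 (54.2%, 35.1 to 72.1) were members. They included PITX3, a gene of dopamine neurons and the lens, at 25.5, HESX1 at 17.7, PKNOX2 at 13.99 and the pancreas regulator PDX1 at 11.6. HESX1 was marked at its end and also had a boundary summit with H3K27ac. PITX3 stood 3168 bp from an H3K27ac summit with a score of 4.57.

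In the FOX family 11 of 25 genes with boundary H3K4me3 were members (44.0%, 26.7 to 62.9), beside 15.3% of all genes with the mark. The median best member score was 8.32 for FOX genes and for bHLH genes. Of all boundary summits with scores from 5 to 10, 37.5% were members. FOXP2, a gene of speech and brain development, had the highest score of all regulators, 44.5, with H3K27ac 342893 bp away. Its summit lay at the outermost annotated start of the gene far upstream of the start in the RefSeq promoter table. FOXB1 scored 31.1, the ovary regulator FOXL2 12.8, FOXF2 11.9 and FOXJ1, a gene of ciliated cells, 10.9 at a boundary shared with RNF157. The FOXB1 and FOXL2 summits lay at the ends of the genes, 2307 and 2902 bp downstream of their starts. Among bHLH genes 7 of 16 were members (23.1 to 66.8%). They were led by ATOH7, a retinal ganglion cell gene, at 29.6 and by the Notch pathway repressors HEY2 at 24.3 and HES6 at 24.2. SOX5 scored 22.2 with H3K27ac 633641 bp away, and SOX18, an endothelial gene, scored 4.36. The T-box genes EOMES, TBX1 and TBR1 were weak, at 8.32, 3.47 and 2.27. The EOMES summit lay at the end of the gene, 7142 bp downstream of its start. Neither of the 2 GATA genes with boundary H3K4me3 was a member, while 1 of 2 PAX genes, 1 of 3 POU genes and 2 of 5 ZIC, GLI and GLIS genes were. Of the 60 regulator genes, 47 (78.3%, 66.4 to 86.9) had no H3K27ac summit in the gene and no boundary summit with H3K27ac, against 61.7% (59.4 to 63.9) of all member genes.

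Developmental signals were members in 25 of 51 cases with boundary H3K4me3 (35.9 to 62.3%). Of 18 WNT, FGF, BMP and Hedgehog ligand genes with boundary H3K4me3, 10 were members (55.6%, 33.7 to 75.4), though with low scores, from 3.50 to 11.6. GDF7 was the highest at 11.6, and FGF8, WNT4 and WNT10A each scored 8.32, WNT10A at the end of the gene. FGF11 scored 9.70 at its end, which is also the start of the acetylcholine receptor subunit gene CHRNB1, and had another boundary summit with H3K27ac. Of 33 axon guidance genes with the mark, 15 were members (45.5%, 29.8 to 62.0), and 11 of the 15 scored at least 10. They included semaphorin genes, whose products steer growing axons and cell migration: SEMA6C at 40.1, SEMA7A at 32.5, SEMA4F at 29.1, SEMA4D at 21.5 and SEMA3D at 18.5. In SEMA6C an H3K4me1 summit lay 374 bp from the H3K4me3 summit and H3K27ac 18826 bp away. NTNG2, a netrin family gene, scored 19.6.

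**Figure D3:**
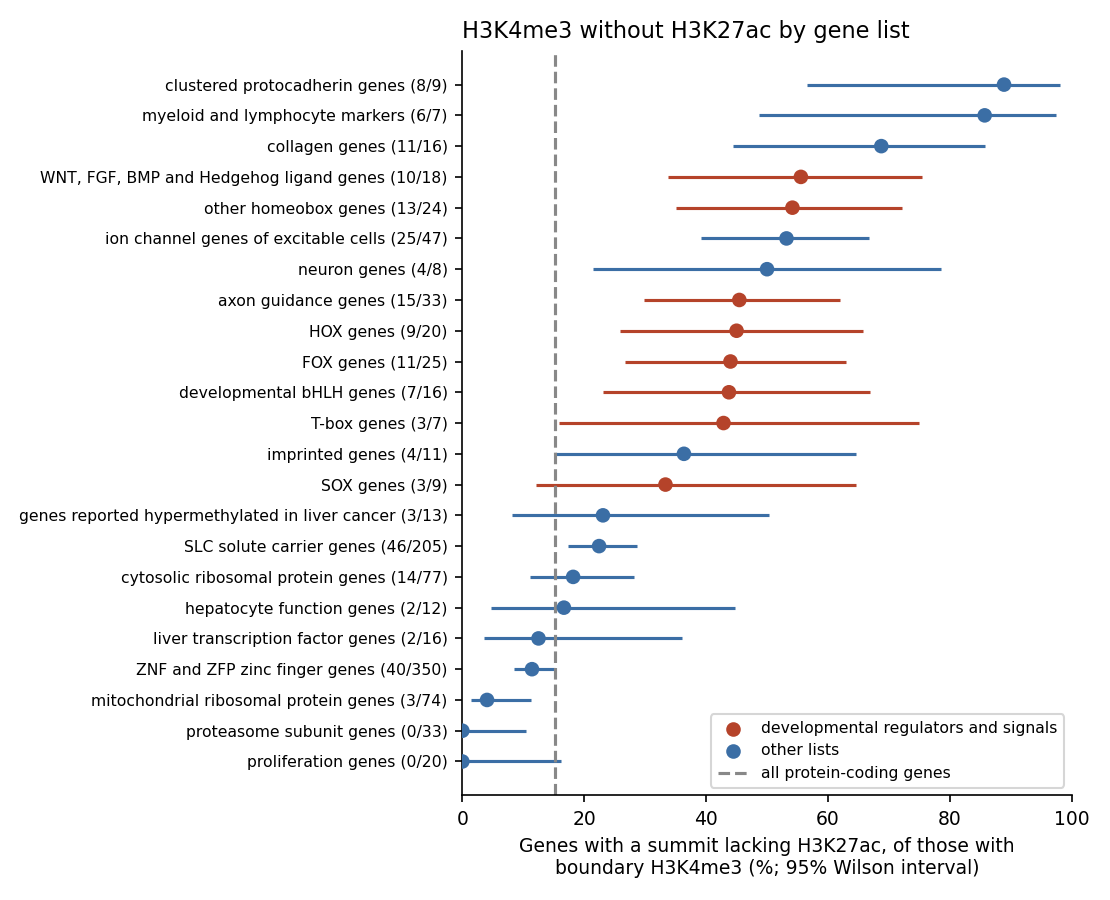
Share of genes with a member summit among the genes of each list with boundary H3K4me3 (percent, points, with 95% Wilson intervals; counts in the labels), for lists with at least 7 such genes. Developmental lists (red) lie between 33.3% and 55.6%, with every point above the dashed line for all protein-coding genes at 15.3% though the interval of the SOX list reaches down to 12.1%, and proteasome and proliferation genes lie at 0.

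Genes restricted to other tissues also carried H3K4me3 without H3K27ac in many of the cases where they carried it at all. Ion channel genes of excitable cells had boundary H3K4me3 in 47 of 191 cases, and 25 of the 47 were members (53.2%, 39.2 to 66.7), beside 15.3% of all genes with boundary H3K4me3. The potassium channel genes KCNH3 and KCNG3 scored 34.2 and 29.0, KCNG3 at a boundary shared with MTA3, and the sodium channel gene SCN9A and the calcium channel gene CACNA1D scored 22.8 each. Clustered protocadherin genes, whose alternative promoters give neurons distinct surface identities, were members in 8 of 9 cases (88.9%, 56.5 to 98.0). PCDHGB1 scored 42.7, PCDHGC3 24.2, PCDHB6 22.8 and PCDHGA10 20.2, and PCDHA2 and PCDHA5 scored 12.1 and 10.5. Collagen genes were members in 11 of 16 cases (68.8%, 44.4 to 85.8). COL4A5 and COL4A6, basement membrane collagen genes, shared a summit of 21.5 at their paired starts, and COL8A1 scored 16.4. Of the 392 olfactory receptor genes only OR52N2, OR1F1 and OR2AT4 had boundary H3K4me3, at 13.99, 9.40 and 2.63, and all 3 lacked H3K27ac. Of the neuron genes 4 of 8 with the mark were members, and of the heart and skeletal muscle genes 1 of 4. The median best member score was 9.31 for ion channel genes, 16.2 for protocadherin genes and 8.32 for collagen genes. Among all boundary summits, 37.5% with scores from 5 to 10 and 33.3% with scores from 10 to 20 were members. Shares of these lists were not compared within score ranges.

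Of the markers of blood, vessel and stromal cells, 7 of 20 myeloid and lymphocyte markers had boundary H3K4me3 (35.0%). So did 2 of 15 endothelial markers and 3 of 14 stellate cell and fibroblast markers, beside 56.8% of all protein-coding genes. Of 7 myeloid and lymphocyte markers with boundary H3K4me3, 6 were members (85.7%, 48.7 to 97.4), beside 15.3% of all genes with boundary H3K4me3. Their median best score was 6.82, and 37.5% of all boundary summits with scores from 5 to 10 were members. CD8A, a T cell coreceptor gene, scored 31.0, while CD14 (7.26), TYROBP (7.04, shared with HCST), CD3E (6.59), ITGAX (3.23) and CD4 (3.00, shared with GPR162) were weak. The TYROBP and CD14 summits lay at the ends of the genes, 4826 and 778 bp downstream of their RefSeq starts. None of the 6 had H3K27ac in the gene. In the endothelial list 1 of 2 genes with the mark was a member (9.45 to 90.5%). In the stellate cell and fibroblast list 2 of 3 were (20.8 to 93.9%). ACTA2, the gene of smooth muscle actin, had a score of 51.8 and KDR, the main VEGF receptor gene of endothelium, one of 22.8, with H3K27ac 40618 and 43786 bp away. In the germline list MAEL scored 16.8, at a boundary shared with ILDR2, and the cancer-testis gene MAGEA3 scored 14.2. Of the imprinted genes, which are expressed from 1 parental allele, 4 of 11 with boundary H3K4me3 were members: MEST at 32.5, L3MBTL1 at 28.0, PLAGL1 at 24.2 and NAP1L5 at 16.4.

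Liver genes and genes of basic cell functions gave shares near or under that of all genes with boundary H3K4me3. Solute carrier genes had a higher share. Of 12 hepatocyte function genes with boundary H3K4me3, 2 were members (16.7%, 4.70 to 44.8), a share near the 15.3% of all genes. ASS1, an enzyme gene of the urea cycle, had a score of 20.3 with H3K4me1 2414 bp away and H3K27ac 133875 bp away, and the apolipoprotein gene APOA1 had a summit of only 1.80. Among 16 liver transcription factor genes with the mark 2 were members, PROX1 at 5.96 among them. Of 13 genes reported as hypermethylated in liver cancer that had the mark, 3 were members (23.1%, 8.18 to 50.3). This interval takes in the 15.3% of all genes. No proteasome subunit gene of 33 and no proliferation gene of 20 with boundary H3K4me3 was a member. Zinc finger genes with ZNF or ZFP symbols were members in 40 of 350 cases (11.4%, 8.51 to 15.2) and solute carrier genes in 46 of 205 (22.4%, 17.3 to 28.6). Of the 40 zinc finger genes 34 had neither H3K27ac in the gene nor a boundary summit with it, ZNF416 at 58.1 and ZNF711 at 44.2 among them, the latter sharing its boundary with SATL1.

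Cytosolic ribosomal protein genes looked different from the developmental lists. Of 77 with boundary H3K4me3, 14 had a member summit (18.2%, 11.2 to 28.2), but 10 of the 14 also had a boundary summit with H3K27ac, against 5 of the 60 developmental regulators. Their member summits were weak, with a median best score of 4.14, and the 7 of the 8 highest whose strand was known lay at the end of the gene: RPL11, RPL28, RPL39, RPL10 (shared with DNASE1L1), RPS27A (shared with MTIF2), RPS13 and RPS26. In RPL10 the summit stood 3376 bp downstream of the start, scored 4.76 and lay 2920 bp from an H3K27ac summit of 81.9. In mitochondrial ribosomal protein genes 3 of 74 were members, MRPL12, MRPS26 and MRPL24 (shared with METTL25B), each again at the end of the gene with H3K27ac between 3060 and 3477 bp away.

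None of the 12 member genes with the highest scores was a developmental regulator. ZNF580 had the highest score, 95.2, at the end of the gene, at position 55644079 of chromosome 19, and it also had a boundary summit with H3K27ac. ZFP36, which encodes an mRNA decay factor induced by inflammatory signals, followed at 92.7 at position 39407024 of chromosome 19, 177 bp downstream of its start and 5727 bp from H3K27ac. TNFRSF1A, the gene of a TNF receptor, scored 91.6, and ANXA1, an anti-inflammatory annexin gene, 91.2. TMEM67 at 87.8 and COMMD9 at 74.9 had no H3K27ac in the gene and stood 13665 and 21021 bp from it. In MTMR10 (85.8), GPRC5C (80.6), PSMG3 (79.1) and COX19 (77.5) H3K27ac was between 2511 and 3428 bp away, close to the threshold, as it was in ZNF580 (2953 bp) and ANXA1 (3014 bp). HMOX1, the haem oxygenase gene of the oxidative stress response, scored 72.6 with H3K27ac 4745 bp away at a score of 73.9, and SLC16A5 scored 71.6. Of the 115 members with a score of at least 40, 25 (21.7%, 15.2 to 30.1) had H3K27ac within 5000 bp, against 38 of 419 (9.07%, 6.68 to 12.2) with scores from 20 to 40 and 97 of 429 (22.6%, 18.9 to 26.8) with scores under 5. NYAP1 had 4 member summits, the most of any gene, and 1318 of the 1730 genes had 1.

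The state of the whole gene divided the member genes. Neither an H3K27ac summit inside the gene and its 1000 bp margins nor a boundary summit with H3K27ac was found for 1067 of 1730 genes (61.7%, 59.4 to 63.9). In 282 genes (16.3%, 14.6 to 18.1) an H3K4me3 summit with H3K27ac within 2500 bp lay elsewhere in the gene. TNFRSF1A, ANXA1, GPRC5C and RIPK1 were of this kind. A further 191 genes (11.0%, 9.65 to 12.6) had such a summit at a boundary, and 190 (11.0%, 9.59 to 12.5) had H3K27ac in the gene with no H3K4me3 beside it. The median best member score was 6.28 in the genes with H3K27ac at another boundary summit and 13.1 in those with no H3K27ac, but 14.3 and 15.2 in the kinds with H3K27ac elsewhere in the gene, with and without H3K4me3 beside it. H3K4me1 occurred in 20.2% of the genes with no H3K27ac, against 79.1% of those with a summit with H3K27ac elsewhere in the gene, and the part of gene length in these shares was not tested.

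H3K4me1, which marks enhancers and the flanks of active promoters, lay within 2500 bp of a smaller share of members than of other boundary summits, while the shares within 500 bp were close to each other. A summit of it lay within 1000 bp of 132 members (6.49%, 5.50 to 7.64), against 9.18% (8.66 to 9.73) of boundary summits with H3K27ac. Within 500 bp the shares were 3.98% (3.21 to 4.92) and 4.05% (3.70 to 4.43). Within 2500 bp it lay near 270 members (13.3%, 11.9 to 14.8) and 26.0% (25.2 to 26.8) of the others. This share of members varied with their distance to H3K27ac. With H3K27ac 2500 to 5000 bp away it was 39.3% (33.6 to 45.2), above that of the others. With H3K27ac 5000 to 10000 bp away it was 23.3% (18.6 to 28.8), and 10000 to 100000 bp away 8.28% (6.85 to 9.98). With members taken at over 1000 bp from H3K27ac in place of 2500 bp, the order within 1000 bp turned, to 9.89% and 8.48%. The median distance to H3K4me1 was 32860 bp for members and 10915 bp for the others. The gap was there at like H3K4me3 scores too. With scores from 10 to 20, 8.61% of 488 members (6.43 to 11.4) and 28.0% of 979 others (25.3 to 30.9) had H3K4me1 within 2500 bp. Above 40 the shares were 22.6% (15.9 to 31.1) and 23.3% (22.3 to 24.4), with overlapping intervals.

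**Figure D4:**
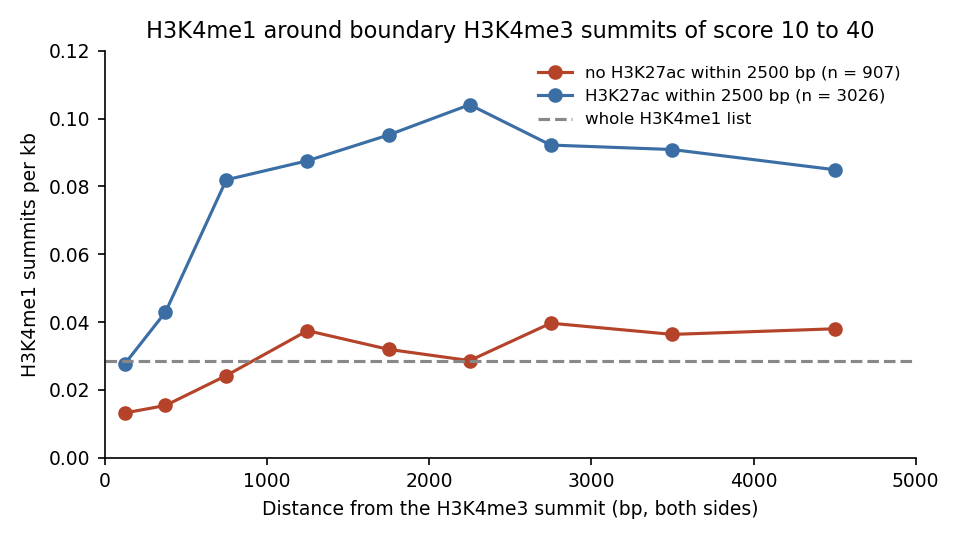
H3K4me1 summits per kb (y axis) by distance from boundary H3K4me3 summits with scores from 10 to 40 (x axis, bp on both sides), for the 907 members and for 3026 summits with H3K27ac; the dashed line is the density of the whole H3K4me1 list. Summits with H3K27ac reach 0.104 per kb between 2000 and 2500 bp, where members have 0.0287.

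The profile of H3K4me1 by distance was flatter around members of middle score. Between 1000 and 5000 bp from members with scores from 10 to 40, H3K4me1 had 0.0287 to 0.0397 summits per kb, against 0.0285 over the whole list and 0.0849 to 0.104 around summits with H3K27ac. Within 250 bp of these summits of middle score the densities were 0.0132 and 0.0278 per kb, lower than further out. The 1013 members with scores under 10 went the other way, with 0.0849 per kb within 250 bp, though summits with H3K27ac of the same scores had 0.249. Around the 115 members with scores of at least 40 there were 0 H3K4me1 summits within 250 bp and 0.113 per kb between 1000 and 1500 bp. Over all scores the density within 250 bp was 0.0482 per kb for members and 0.0445 for the others. Members at developmental regulators had H3K4me1 within 1000 bp in 3 of 82 cases (3.66%, 1.25 to 10.2) and within 2500 bp in 10 (12.2%, 6.76 to 21.0). The member with the highest score among those with H3K4me1 within 1000 bp was at TXNRD1, a thioredoxin reductase gene, at 60.0 with 4 H3K4me1 summits within 2500 bp. LAMB3, a laminin gene of epithelial basement membranes, and CLIC3 had 6 each, the most of all members, the member of CLIC3 scoring 5.96. Among the 132, H3K4me1 also lay close to CLDN1, a tight junction gene, and APOC1, an apolipoprotein gene, at 718 and 723 bp, genes named after their values were seen. H3K4me1 summits scoring at least 10 were rare near boundary H3K4me3 summits of both groups. With only these counted, the share within 1000 bp was 0.491% of members and 0.880% of the others. How common such scores are in the whole H3K4me1 list is not reported here.

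Where the strand was known, most members sat at starts of genes, as did the summits with H3K27ac. RefSeq promoter entries giving a strand matched 15813 of the 19974 genes. Gene starts took 1376 members (67.6%), gene ends 187 (9.19%) and boundaries of unknown strand 472 (23.2%), against 80.0%, 3.68% and 16.3% of the summits with H3K27ac. Summits at ends were weaker in both groups. The median score at ends and starts was 4.76 and 11.6 for members, and 6.25 and 48.7 for summits with H3K27ac. Of the members at ends, 94 (50.3%, 43.2 to 57.4) had H3K27ac within 5000 bp, against 8.43% (7.08 to 10.0) at starts. H3K4me1 lay within 1000 bp of 37 members at ends (19.8%, 14.7 to 26.1), against 4.80% (3.79 to 6.06) at starts. For summits with H3K27ac these shares were 37.1% (32.6 to 41.8) at ends and 7.29% (6.78 to 7.85) at starts. A start of any gene in the RefSeq promoter table lay within 1000 bp of 11 of the 187. Around starts, the 1262 members within 1000 bp of a tabulated start had a median position 137 bp downstream, and 66.1% (63.4 to 68.6) lay downstream, against 171 bp and 70.2% (69.2 to 71.1) for summits with H3K27ac. Shared boundaries were rarer, since 150 members (7.37%, 6.31 to 8.59) lay at boundaries of more than 1 protein-coding gene, against 16.5% (15.9 to 17.2) of the others.

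Promoters of the members were mostly CpG-rich, less often than those with H3K27ac when all scores were pooled. Counts were made in the RefSeq window from 250 bases before to 50 bases after the start, for starts with a summit within 1000 bp, and a window was called CpG-rich with a GC content of at least 50% and a CpG observed over expected ratio of at least 0.6. Of 1034 promoters with a member and no summit with H3K27ac, 812 were CpG-rich (78.5%, 75.9 to 80.9), against 87.1% (86.3 to 87.8) of 7587 with H3K27ac and 32.1% (31.0 to 33.3) of 6528 with no H3K4me3. The median ratio was 0.792, 0.865 and 0.362 in that order. The order of the first 2 groups turned at best scores under 40. With scores under 5 the shares were 60.9% (50.7 to 70.2) for members and 36.7% (26.9 to 47.7) with H3K27ac. With scores from 5 to 10 the shares were 72.0% (66.2 to 77.1) for members and 53.7% (45.7 to 61.5) with H3K27ac, from 10 to 20 they were 79.3% (74.3 to 83.6) and 71.8% (66.4 to 76.7), and from 20 to 40 they were 85.9% (81.7 to 89.4) and 84.2% (81.9 to 86.2), with overlapping intervals in the last 2 ranges. From 40 up, where most promoters with H3K27ac fall, they were 87.8% (79.0 to 93.2) of 82 and 89.9% (89.1 to 90.6) of 5919. CpG-rich member promoters had a median best score of 16.4 and the 222 others one of 10.1. LHX9, PITX3 and HEY2 in the sequences printed above belong to the first kind, GPRASP3 and BACE1 to the second.

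**Figure D5:**
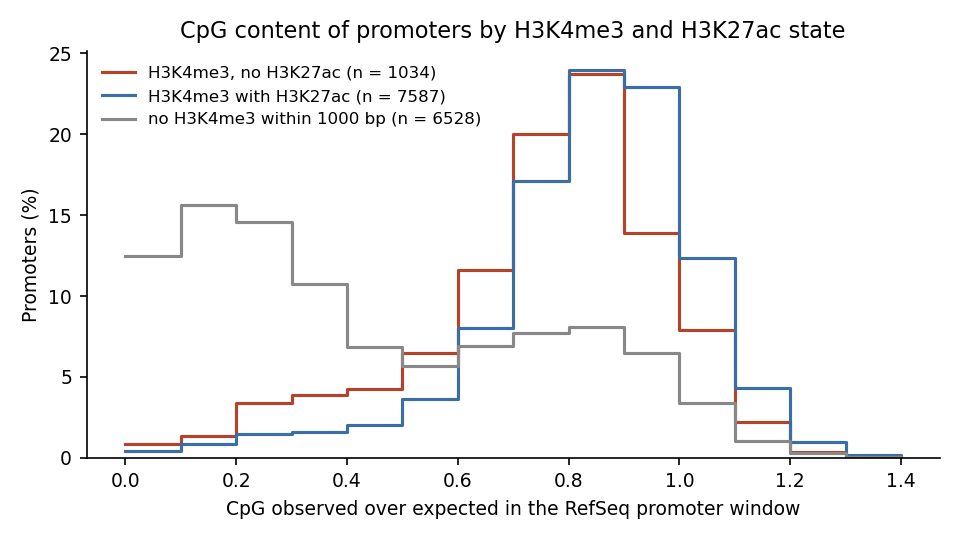
Distribution of the CpG observed over expected ratio (x axis) in RefSeq promoter windows, as percent of promoters in each group, for starts with a member summit only, with H3K27ac, and with no H3K4me3. Member promoters have a median of 0.792 and those with no H3K4me3 one of 0.362.

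Among the motifs searched, the CCGGAA letters, the core bound by ETS factors, differed most between the 2 kinds of H3K4me3 promoter. The difference was taken in percentage points with all scores pooled. On either strand these letters occurred in 13.2% of member promoters and 35.2% of those with H3K27ac. They occurred in 9.93% of promoters with no H3K4me3 and 22.8% of all 15813 windows. Among CpG-rich windows with best scores from 10 to 40 the shares were 15.0% of 499 and 27.4% of 1176. The gap depended on the score. Among windows of any CpG content with best scores under 5 the order turned, at 13.0% of 92 and 7.59% of 79. From 5 to 10 the shares were 10.1% of 257 and 13.4% of 149, and from 40 up 20.7% of 82 and 38.7% of 5919. The palindromic NRF1 site was found in 0.677% of member promoters and 2.82% of those with H3K27ac, against 1.76% of all. The GC box letters GGGCGG did not separate them, at 74.3% and 73.8%, with 58.5% of all windows. TATAAA, the letters of the TATA box, occurred in 4.74% and 5.05%, against 9.64% of all windows and 16.3% of those with no H3K4me3. The CCAAT letters were found in 31.8%, 38.0% and, over all windows, 36.3%. The E-box letters CACGTG occurred in 8.99%, 10.7% and 8.87%, the CRE palindrome in 2.51%, 3.52% and 2.59%, and the REST site core in 0.0967%, 0 and 0.0759%. No motif contains another, matches may overlap in part, and a match describes letters, not binding.

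Members were spread over all 23 chromosomes analysed. Their share of the boundary H3K4me3 summits ran from 11.2% (7.32 to 16.9) on chromosome 18 to 19.1% (15.9 to 22.8) on X, where 94 of 492 were members, with chromosome 4 at 18.8% (15.6 to 22.6). On chromosomes 16 and 19 the shares were 11.8% (9.54 to 14.5) and 13.2% (11.3 to 15.5), and their intervals lie below those of X and chromosome 4.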

How the data were processed

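The members and gene lists were chosen with earlier results of these data known, and no test was made on them. The build hg38 and the tools MACS2, deepTools, Picard and Bowtie are named per the submitters' processing notes. For their versions, settings and any use of the input as control, nothing is stated in the sources used here. The authors deposited 1 summit list per mark, with a −log10 score of a p-value or q-value, which is used only to describe and rank summits within a list. The lowest scores were 1.30 (H3K27ac), 1.33 (H3K4me1) and 1.31 (H3K4me3). Read depth is unknown. Summits on chromosome Y and contigs (273, 61 and 185 in that order) were left out, which left 70028, 86366 and 46078.

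Gene limits, biotypes and promoter sequences came from RefSeq on GRCh38.p14, which has the coordinates of hg38. Distances were taken between summit positions with Python 3.11.15, pandas 2.3.3 and SciPy 1.17.1, and the distance functions were tested on simulated data. Of 573 gene list entries given by name, 2 had no match. The 35 lists are 15 of developmental genes, and lists of tissue-restricted, other cell type, liver, cancer, imprinted, gene family and housekeeping genes. Named genes are up to 8 members of each list with the highest score, the 12 highest members, and the 5 extremes in number of summits, H3K4me1 and distance to H3K27ac. Some items under this rule are not reported here. Alternatives varied the windows, score minimums and boundary type.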

Additional observations from a re-analysis of the deposited data

How the results depend on the processing

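The number of members was 2035, and it was 3526 when H3K27ac had to score at least 10 and 1022 when H3K4me3 had to. The genes, 1730, became 2996 and 1018. The median score of 10.0 became 13.99 and 20.3 under these settings, 11.6 with RefSeq starts only, 11.6 with a boundary window of 500 bp and 8.06 with 2500 bp. Developmental regulators, 3.47% of the member genes, became 2.70% and 2.46% under the score minimums and 2.24% with RefSeq starts only. Genes with H3K27ac had 0.590%, 0.653% and 0.615% under the same settings, and the members' share was the higher one in all 7 settings that can change it. The members' share was also a higher value than the 1.80% of all protein-coding genes, but came closer to it under the score minimums and with RefSeq starts only. It rested on 25 of 1018 genes under the H3K4me3 minimum and 26 of 1163 with RefSeq starts only, and no intervals are given for these settings. With RefSeq starts only, just the 15813 genes with a promoter entry could be members, while the 1.80% covers all 19974. The share of members with H3K4me1 within 1000 bp, 6.49%, was 9.89% with H3K27ac over 1000 bp away, 4.36% over 5000 bp, 8.05% and 3.42% under the H3K27ac and H3K4me3 score minimums, 5.11% with RefSeq starts only and 8.82% with a 2500 bp boundary window. Counted within 500 bp it was 3.98%, within 2500 bp 13.3%, and with H3K4me1 scores of at least 10 0.491%. With H3K27ac over 1000 bp away it exceeded the 8.48% of the other boundary summits, and the cause was not tested; in the other settings it was lower than theirs. No paired analysis was possible because each mark had 1 library and no test was made. Without read counts, absence of a summit is not absence of the mark.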
